A study of Chlorocebus sabaeus with 10 samples.

Results

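Cytochromes P450 of families 1 to 4 are the heme enzymes with which the liver oxidizes drugs, environmental chemicals, ethanol, steroids and fatty acids. They sit mainly in the membrane of the endoplasmic reticulum and take electrons from P450 oxidoreductase (POR) and, for some reactions, from cytochrome b5. Families 1, 2 and 3 hold most of the drug-metabolizing members, which are induced through the aryl hydrocarbon receptor (family 1), CAR (encoded by NR1I3) and PXR (encoded by NR1I2), whereas family 4 enzymes mainly hydroxylate the ends of fatty acids and eicosanoids. The genes described here are those of the deposited transcript table whose symbol begins with CYP followed by a family number from 1 to 4 and a subfamily letter, which gave 20 of the 23352 gene symbols in the table. CYP4A11 was left out and is not analysed here. Each of the 20 genes had 1 annotated transcript. All 20 symbols are also listed by RefSeq for the vervet, among 35 symbols of families 1 to 4 there.

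Liver biopsies were taken from 10 female vervet monkeys (Chlorocebus sabaeus), all kept on chow before the study, after 6 weeks on either a high fructose diet (HFr, n = 5 animals) or chow (n = 5 animals). Animals were assigned to the diets so as to balance age and body weight, and each library came from 1 animal. The mean age in the paper was higher on HFr than on chow, a difference that its test did not call significant. Polyadenylated RNA was sequenced, and the reads of each transcript were estimated by the authors by expectation-maximization, which can split a read between transcripts. The comparison asks whether the P450 transcripts of the liver differed after the fructose diet.

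The total of each library lay between 2977282 and 4992505 estimated counts, and transcripts of the mitochondrial genome took 34.75% to 73.59% of them, which left 864571 to 2657103 counts for nuclear transcripts. The label of the tissue was checked against marker genes. The summed normalized counts of 6 hepatocyte markers (ALB, APOA1, APOB, TTR, SERPINA1 and TF) ranged from 42680 to 67345 CPM (TMM-scaled counts per 1e6 counts) on HFr and from 36270 to 71653 CPM on chow. The summed level of 4 skeletal muscle markers did not exceed 1.83 CPM in any animal, and CKM, MYH7 and MB were listed at 0 in all of them. In bulk tissue, fewer cells of a type and less RNA per cell cannot be told apart.

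Of the 20 genes, 13 had 10 or more counts in at least 5 of the 10 animals, against 29.8% of all 28078 transcripts in the table. Among them were CYP1A1, CYP2B6, CYP2C8, CYP2E1, CYP2J2, CYP2R1, CYP3A4, CYP3A5, CYP3A43, CYP4B1, CYP4F11 and CYP4V2. A further 4 genes had counts but stayed under this minimum. CYP2U1, a fatty acid hydroxylase, had 55 counts over the 10 animals and reached 10 in 3 of them. CYP4F8, known as a prostaglandin hydroxylase of the seminal vesicles, had 18 counts, and CYP2S1 and CYP4X1 had 3 each. CYP1B1, CYP2W1 and CYP4F22, the last of these a skin enzyme needed to make acylceramides, had 0 counts in every library. Over the 36299748 counts of all 10 libraries together, a count of 0 allows up to 3 counts, or 0.0826 per 1e6 counts, in counting error alone.

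The counts of the 20 genes lay mostly in a few of them. CYP2E1, which oxidizes ethanol, acetone and acetaminophen, took 40.8% of all counts of the 20 genes, and CYP3A4, which oxidizes a large share of prescribed drugs, took 27.5%. Together they held 68.3%, and CYP2C8 took 9.11%. These are shares of counts, without correction for transcript length, and do not rank the genes by RNA molecules. The 20 genes together took 1.78% ± 0.33 (SD, n = 5) of the nuclear counts on HFr and 2.17% ± 0.31 (SD, n = 5) on chow. By animal, the share on HFr was 2.23%, 1.54%, 1.79%, 1.96% and 1.40% in replicates 1 to 5. On chow it was 2.23%, 2.05%, 2.10%, 1.81% and 2.66%, so that the diets overlapped. The difference in this share was not tested, and CYP2E1 and CYP3A4 make up most of it.

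**Figure D1:**
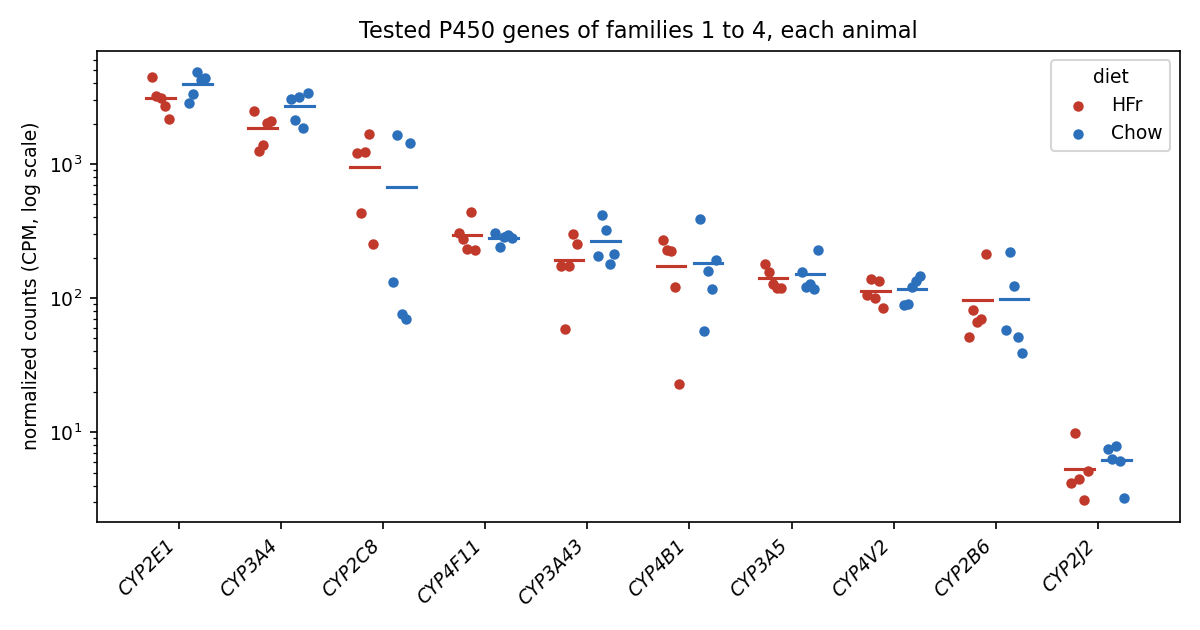
Normalized counts (CPM, log scale) of 10 of the tested P450 genes in each of the 10 animals, with HFr in red and chow in blue; each point is 1 animal and each bar the mean of 5. The points of the diets overlap for every gene shown, all 5 HFr points of CYP3A4 lie below the chow mean of 2721 CPM, and those of CYP2C8 span from 70.2 to 1672 CPM over both diets.

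For the comparison of the diets, normalized counts (CPM) are estimated counts divided by a library size that carries the TMM composition factor of edgeR, and edgeR's quasi-likelihood test was applied to the 7948 transcripts that passed a filter on low counts. Of the 13 genes, 11 passed this filter, and CYP1A1 and CYP2R1 did not because the filter scales its minimum to the library size. None of the 11 P450 genes passed the test at an adjusted p under 0.05 with edgeR, where 0 of the 7948 transcripts did. DESeq2 called 2 of 7940 transcripts (0.0252%) after adjustment, none of them a P450 gene described here. At an unadjusted p under 0.05, edgeR called 0 of the 11, against a background of 4.29% of all tested transcripts, and DESeq2 called 1, CYP3A4, against a background of 4.16%. For 0 of the 11 genes were the diets without overlap, which was the case for 0.541% of all tested transcripts. The log2 fold change of HFr over chow was below 0 for 9 of the 11 genes, against 50.2% of all transcripts, and the adjusted p was 0.9996 for each of the 11. The median log2 fold change was -0.10 over the 11 genes and -0.00075 over all tested transcripts.

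**Figure D2:**
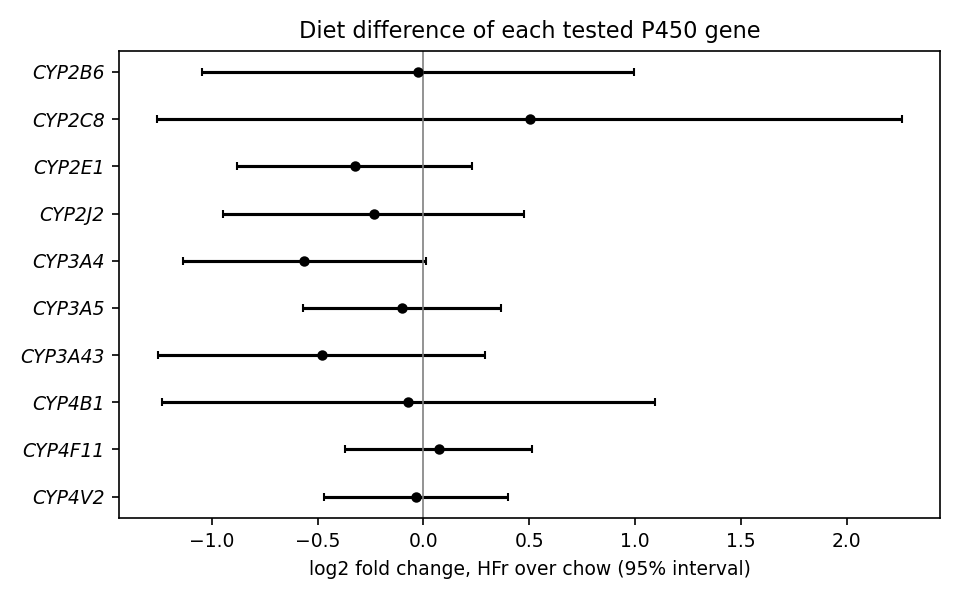
Log2 fold change of HFr over chow for 10 of the tested P450 genes, with points for edgeR's estimate and bars for its 95% interval, and a vertical line at 0. All 10 intervals shown cross 0, that of CYP3A4 only just (-1.14 to 0.01), and that of CYP2C8 is the widest.

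CYP3A4 lies in the CYP3A cluster of chromosome 28 (ChlSab1.1, chr28:13313930-13331833, plus strand). Its normalized counts on HFr were 2484, 1253, 1381, 2012 and 2085 CPM in replicates 1 to 5. On chow they were 3069, 2129, 3181, 1842 and 3385 CPM. All 5 HFr animals lay below the chow mean, while chow replicates 2 and 4 lay within the range of HFr. The means were 1843 ± 515 CPM (SD, n = 5) on HFr and 2721 ± 689 CPM (SD, n = 5) on chow. The fitted log2 fold change was -0.56 with a standard error of 0.27 and a 95% interval from -1.14 to 0.01 (edgeR, unadjusted p = 0.0546, adjusted p = 0.9996). CYP3A4 passed an unadjusted p of 0.05 with the mitochondrial percent as a covariate, against 5.11% of all transcripts, and without mitochondrial transcripts, against 4.46%. It did so in 7 of 25 alternative analyses, over which its p ranged from 0.0236 to 0.127, and the adjusted p ranged from 0.841 to 1. CYP3A4 lies within a longer unnamed protein-coding gene on the same strand (ENSCSAG00000017825, chr28:13297957-13473751), and its values were fractional in all 10 libraries. The unnamed gene had 70.0 to 4345 counts per animal, at 390 ± 340 CPM (SD, n = 5) on HFr and 386 ± 255 CPM (SD, n = 5) on chow. With its counts added to those of CYP3A4, the log2 fold change was -0.48 (edgeR, unadjusted p = 0.0985).

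The other 2 genes of family 3 lie on either side of CYP3A4 on chromosome 28. CYP3A5 (chr28:13491483-13519508, plus strand), which shares most substrates with CYP3A4, ranged from 118 to 180 CPM on HFr and from 118 to 229 CPM on chow, with a log2 fold change of -0.10 ± 0.22 (SE). CYP3A43 (chr28:13216548-13257016, minus strand), an enzyme with little known activity, ranged from 58.8 to 302 CPM on HFr and from 181 to 417 CPM on chow, with a log2 fold change of -0.48 ± 0.36 (SE). The unadjusted p of edgeR was 0.654 for CYP3A5 and 0.204 for CYP3A43. With an animal left out, the log2 fold change of CYP3A43 lay between -0.71 (without HFr replicate 4) and -0.25 (without HFr replicate 2). Within each animal, the counts of CYP3A4 were set against those of CYP3A5, which removes any scaling between libraries. This ratio was 13.8, 8.02, 10.9, 17.0 and 17.5 on HFr and 19.6, 17.5, 25.2, 15.6 and 14.8 on chow in replicates 1 to 5. The diets overlapped, and the mean log2 ratio was 0.50 lower on HFr (difference -0.50, two-sided exact permutation test over 252 assignments, p = 0.0952; the smallest p this design allows is 0.00794). The ratio was chosen after the values were seen, and adjusted over 2 ratios of gene pairs the p was 0.143 (exact permutation test).

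CYP2E1 lies on chromosome 26 (chr26:53390089-53404212, plus strand). Its normalized counts were 4428, 3227, 3092, 2713 and 2169 CPM in HFr replicates 1 to 5. In chow replicates 1 to 5 they were 2829, 3328, 4835, 4245 and 4343 CPM. HFr replicate 1 lay above 4 of the 5 chow animals, whereas the other 4 HFr animals lay below the chow mean. The means were 3126 ± 836 CPM (SD, n = 5) on HFr and 3916 ± 816 CPM (SD, n = 5) on chow, and the log2 fold change was -0.33 with a 95% interval from -0.88 to 0.23 (edgeR, unadjusted p = 0.230). The difference did not exceed the spread between animals, and with an animal left out it lay between -0.49 (without HFr replicate 1) and -0.22 (without HFr replicate 5).

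CYP2C8 (chr9:88154134-88183459, minus strand), which oxidizes paclitaxel and forms epoxides of arachidonic acid, varied more between animals of the same diet than nearly any other transcript. It had 1198, 431, 1218, 1672 and 254 CPM in HFr replicates 1 to 5. In chow replicates 1 to 5 it had 132, 1655, 76.5, 70.2 and 1436 CPM. Chow replicates 2 and 5 were among the 3 highest animals, and the other 3 chow animals were lower than every HFr animal. The values spanned a 23.8-fold range. The SD within a diet of log2(CPM + 1) was 1.801, which ranked 8 among the 7948 tested transcripts from the highest down. The log2 fold change of 0.50 accordingly had a 95% interval from -1.26 to 2.26 (edgeR, unadjusted p = 0.551), and the difference did not exceed the spread between animals. The estimate rested on single animals and on the method: it was 1.16 without chow replicate 2, 0.98 without chow replicate 5, 0.19 without HFr replicate 4, 0.20 to 0.24 without chow replicate 1, 3 or 4, 0.22 with library size only, 1.45 with limma (pseudocount 1) and 1.86 with the replicate block. The unadjusted p lay between 0.118 and 0.830 over the 25 alternatives. CYP2C8 was followed in every animal because of its spread, which was noticed after the values were seen.

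**Figure D3:**
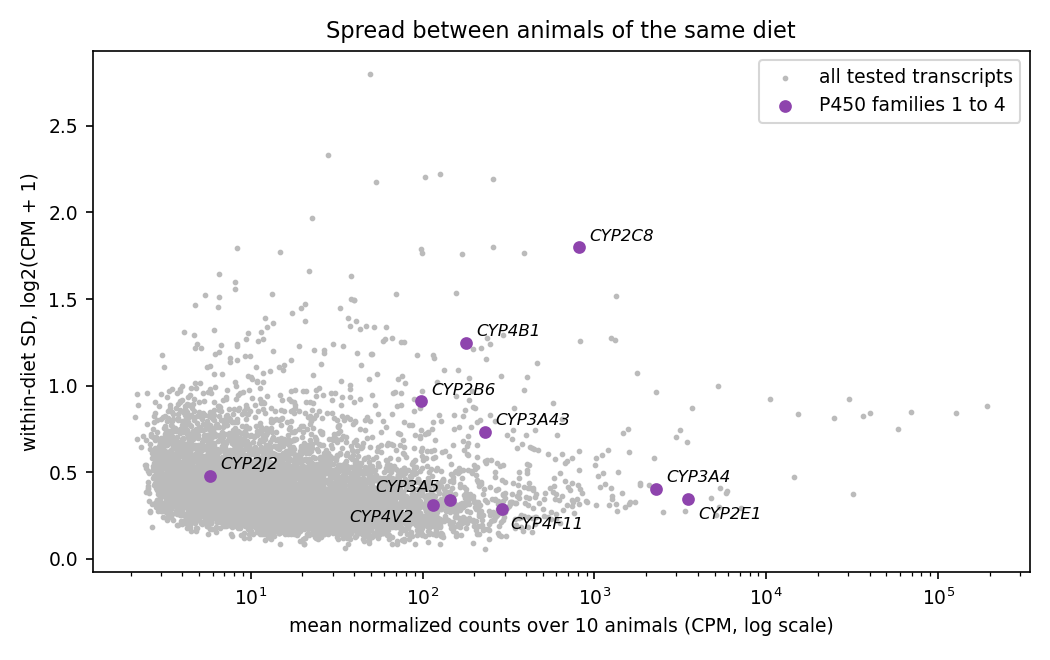
Standard deviation within a diet of log2(CPM + 1) against the mean normalized count over the 10 animals (CPM, log scale), with 1 grey point for each of the 7948 tested transcripts and purple points for 10 of the tested P450 genes. CYP2C8 at 1.801, CYP4B1 at 1.25, CYP2B6 at 0.91 and CYP3A43 at 0.74 lie above most transcripts, and CYP4F11 is the lowest of the 10 at 0.29.

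The spread within a diet differed between the 11 genes. Its median was 0.48 over the 11 genes and 0.36 over all tested transcripts, on the log2(CPM + 1) scale. CYP2C8, CYP4B1, CYP2B6 and CYP3A43 lay above the 90th percentile of all tested transcripts, and CYP2E1, CYP3A5, CYP4F11 and CYP4V2 lay below the median.

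CYP2B6 (chr6:35393342-35418107, plus strand), a bupropion- and efavirenz-oxidizing enzyme induced through CAR, had 51.2, 81.9, 66.6, 69.8 and 214 CPM on HFr. On chow it had 57.8, 220, 122, 51.5 and 38.6 CPM. HFr replicate 5 and chow replicate 2 stood above the rest of their diets, and the log2 fold change was -0.02 with a 95% interval from -1.04 to 0.997 (edgeR, unadjusted p = 0.961). The share of mitochondrial counts fell into separate clusters, with 4 animals at or under 44.0% (HFr replicates 2 and 5, chow replicates 2 and 3) and 6 at or above 57.1%. CYP2B6 had 81.9 to 220 CPM in the 4 animals with the lower share and 38.6 to 69.8 CPM in the 6 with the higher share, without overlap. This was so for 1 of the 11 genes, against 3.47% of all tested transcripts. A correlation over all 10 animals was also computed, but it is not given because the shares form separate clusters. Within the 6 animals, no relation of CYP2B6 with the mitochondrial share passed the test (r = -0.34, exact permutation p = 0.508; rho = -0.26, exact permutation p = 0.658). None of the 11 genes had an adjusted p under 0.05 there, and the smallest was 0.601 for r and 0.565 for rho (exact permutation tests). No correlation was computed within the other 4 animals. Whether the mitochondrial share was a cause of the level of CYP2B6 was not tested. CYP3A4, which shares the regulators CAR and PXR with CYP2B6, showed no relation with it that passed the test over the 10 animals (r = -0.13, permutation p = 0.713; rho = -0.24, permutation p = 0.513; r = 0.07 without HFr replicate 2 and chow replicate 5; adjusted p over 2 gene pairs 0.811 for r and 0.734 for rho).

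**Figure D4:**
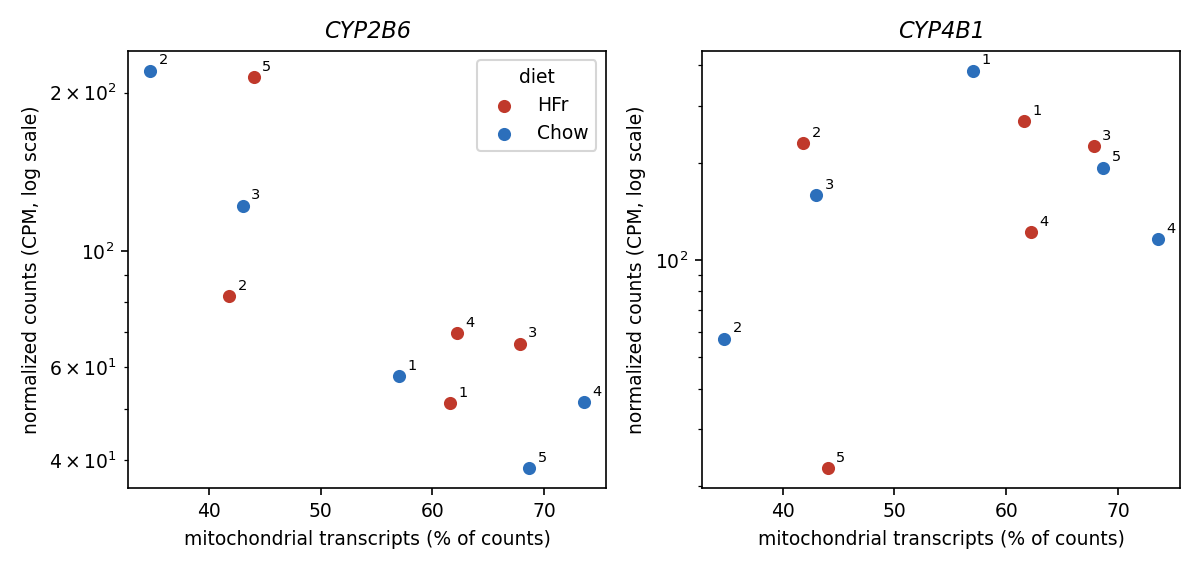
Normalized counts (CPM, log scale) of CYP2B6 on the left and CYP4B1 on the right against the percent of counts on mitochondrial transcripts, with 1 point for each animal, HFr in red and chow in blue, and the replicate number beside it. CYP2B6 is at 81.9 CPM or above in the 4 animals at or under 44.0% and at 69.8 CPM or below in the other 6, and the 2 lowest points of CYP4B1 are HFr replicate 5 and chow replicate 2, which are the 2 highest of CYP2B6.

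CYP2J2 (chr20:73083389-73115078, plus strand), which forms epoxides of arachidonic acid, had 4.14, 9.87, 4.44, 3.11 and 5.14 CPM on HFr. On chow it had 7.54, 6.35, 7.89, 6.06 and 3.22 CPM. HFr replicate 2 was the highest animal and the other 4 HFr animals lay below the chow mean, with a log2 fold change of -0.23 ± 0.33 (SE; edgeR, unadjusted p = 0.493). Without HFr replicate 2 the log2 fold change was -0.59 (edgeR, unadjusted p = 0.0744), without chow replicate 5 it was -0.38, and without HFr replicate 4 it was -0.08, the ends of the range with an animal left out being -0.59 and -0.08. These values rest on 7 to 44 counts per animal.

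The tested genes of family 4 showed differences near 0. CYP4B1 (chr20:85996269-86018056, minus strand), which hydroxylates fatty acids and activates the furan 4-ipomeanol, had 269, 230, 226, 122 and 22.8 CPM on HFr and 385, 57.2, 158, 116 and 193 CPM on chow. Both low animals, HFr replicate 5 and chow replicate 2, were those with the highest CYP2B6, and the log2 fold change was -0.07 with a 95% interval from -1.24 to 1.096 (edgeR, unadjusted p = 0.899). CYP4F11 (chr6:14426592-14481524, minus strand), which hydroxylates long-chain fatty acids and vitamin K, had 308, 276, 233, 442 and 227 CPM on HFr and 308, 242, 286, 293 and 283 CPM on chow. The 5 chow animals lay within 1.27-fold of each other, and the log2 fold change was 0.07 with a 95% interval from -0.37 to 0.52 (edgeR, unadjusted p = 0.727). CYP4V2 (chr7:132108551-132130963, plus strand), a fatty acid hydroxylase known from a retinal dystrophy, had 106, 139, 100, 134 and 84.7 CPM on HFr and 88.7, 90.7, 120, 134 and 145 CPM on chow. Its log2 fold change was -0.04 with a 95% interval from -0.47 to 0.40 (edgeR, unadjusted p = 0.862), and the ranges of the diets nearly coincided. The values of CYP4F11 were fractional in 9 libraries and those of CYP3A5 in 6, which shows that some reads were divided between transcripts, and the levels of these genes and of CYP3A4 are uncertain to that extent.

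**Figure D5:**
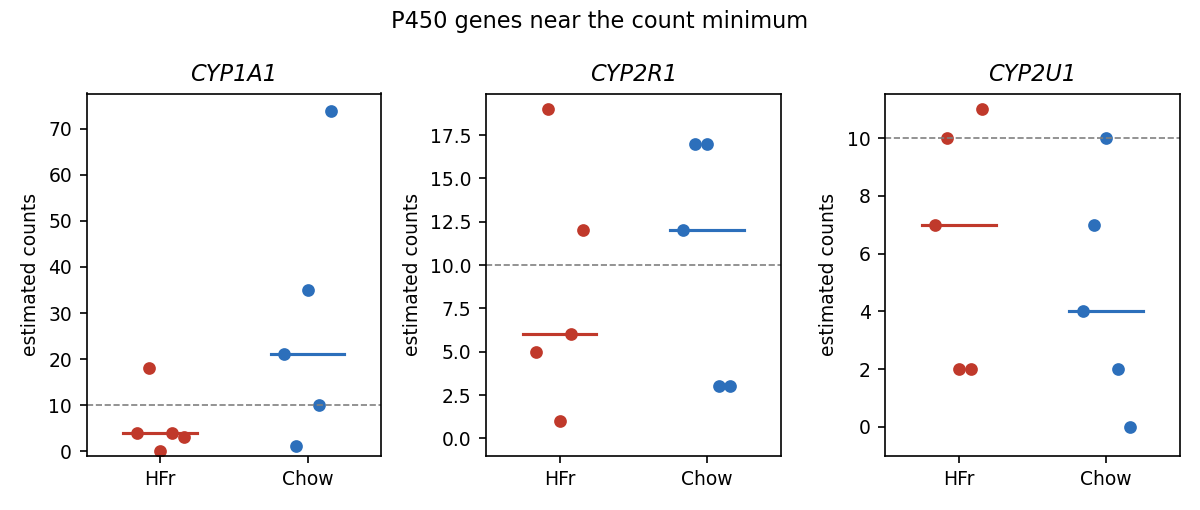
Estimated counts of CYP1A1, CYP2R1 and CYP2U1 in each animal, each panel on its own linear axis, with the median of each diet as a bar and the minimum of 10 counts as a dashed line. CYP1A1 lies at 10 or above in 4 of 5 chow animals and in 1 of 5 HFr animals, and CYP2R1 and CYP2U1 lie on both sides of the line on both diets.

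CYP1A1 (chr26:8753327-8759385, plus strand), the aryl hydrocarbon receptor target that oxidizes polycyclic aromatic hydrocarbons, was near the count minimum. It had 4, 18, 0, 4 and 3 counts in HFr replicates 1 to 5. In chow replicates 1 to 5 it had 21, 1, 35, 10 and 74 counts. HFr replicate 2 was the only HFr animal at 10 or more, chow replicate 2 was the only chow animal under 10, and the totals were 29 counts on HFr and 141 on chow. With the filter set to 10 or more counts in at least 5 animals, its log2 fold change was -2.64 ± 0.91 (SE) with an unadjusted p of 0.0113 and an adjusted p of 0.9997 (edgeR), where 4.32% of 8381 transcripts had an unadjusted p under 0.05 and 0 passed after adjustment. With every transcript that had a count, the log2 fold change was -2.65 ± 0.76 (SE), with an unadjusted p of 0.00209 and an adjusted p of 0.770 (edgeR), where 4.69% of 16124 transcripts had an unadjusted p under 0.05. Much of the difference lay in chow replicate 5, which stood at 34.0 CPM against 0.219 to 6.42 CPM in the other chow animals. Without it the log2 fold change was -1.45 ± 0.76 (SE; edgeR, unadjusted p = 0.0773).

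CYP2R1 (chr1:50031218-50047404, plus strand), a vitamin D 25-hydroxylase, had 1 to 19 counts per animal on HFr and 3 to 17 on chow. With the filter of 10 counts in 5 animals its log2 fold change was -0.30 ± 0.45 (SE; edgeR, unadjusted p = 0.517). CYP2U1 had 2 to 11 counts per animal on HFr and 0 to 10 on chow, and CYP4F8 had 0 to 6 and 0 to 2. With every transcript that had a count, the unadjusted p of edgeR was 0.403 for CYP2U1 and 0.119 for CYP4F8. At this depth, no difference between the diets was detectable for these genes.

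The genes that work with the P450 enzymes were compared in the same fit. There, 4.29% of all tested transcripts had an unadjusted p under 0.05 and 50.2% had a log2 fold change below 0. Of 8 electron donor genes, which include POR and cytochrome b5, 0 of 8 tested had an unadjusted p under 0.05 with edgeR, and 5 had a log2 fold change below 0. POR had 56.7 ± 16.4 CPM (SD, n = 5) on HFr and 46.9 ± 13.3 CPM (SD, n = 5) on chow, and its log2 fold change was 0.27 ± 0.24 (SE). Of 22 regulators, 15 were tested, 0 of them had an unadjusted p under 0.05, and 8 lay below 0. NR1I2 had 7.66 ± 3.39 CPM (SD, n = 5) on HFr and 5.16 ± 2.71 CPM (SD, n = 5) on chow, with a log2 fold change of 0.56 ± 0.39 (SE), and NR1I3 had 49.1 ± 12.1 CPM (SD, n = 5) and 51.5 ± 7.53 CPM (SD, n = 5), with -0.07 ± 0.19 (SE). The gene of the aryl hydrocarbon receptor was not analysed here.

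P450 genes of the families above 4 make and break down steroids, bile acids, retinoids and prostanoids. Of the 8 tested, 7 had a log2 fold change below 0 (background 50.2%) and 1 had an unadjusted p under 0.05 (background 4.29%). This was PTGIS, the prostacyclin synthase, at 4.64 ± 2.19 CPM (SD, n = 5) on HFr and 12.6 ± 9.13 CPM (SD, n = 5) on chow (log2 fold change -1.44 ± 0.54 SE; edgeR, unadjusted p = 0.0174, adjusted p = 0.9996). Of 15 tested enzymes of other phase I families, 12 had a log2 fold change below 0 (background 50.2%) and 1 an unadjusted p under 0.05 (background 4.29%). This was ADH4, an alcohol dehydrogenase, at 382 ± 198 CPM (SD, n = 5) on HFr and 822 ± 298 CPM (SD, n = 5) on chow (log2 fold change -1.11 ± 0.37 SE; edgeR, unadjusted p = 0.00984, adjusted p = 0.9996). The diets overlapped for both genes. ADH4 ranged from 168 to 631 CPM on HFr and from 407 to 1156 CPM on chow. PTGIS ranged from 1.98 to 6.78 CPM on HFr and from 2.02 to 25.4 CPM on chow.

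Many drug-metabolizing P450 enzymes are found mainly around the central vein of the liver lobule, so genes of both ends of the lobule were described beside them. All 11 tested pericentral genes had a log2 fold change below 0, against 50.2% of all tested transcripts. Their median was -0.18, and 0 had an unadjusted p under 0.05 with edgeR. The summed level of the pericentral list was 1578 to 1958 CPM on HFr and 1985 to 2541 CPM on chow, so the diets did not overlap. ALDH1A1 is counted both in this list and among the other phase I enzymes. Of 15 tested periportal genes, 4 had a log2 fold change below 0, with a median of 0.15. The summed level of the periportal list was 26466 to 42352 CPM on HFr and 27629 to 49980 CPM on chow. Most of this sum was ALB, with a mean of 29954 CPM on HFr and 33893 CPM on chow. ALB had a log2 fold change of -0.18 and is also among the hepatocyte markers, so the sum says little about the other periportal genes. Of 14 tested acute phase genes, 2 lay below 0, with a median of 0.15 and 0 at an unadjusted p under 0.05. The other marker lists of the liver gave summed levels of 5.998 to 26.6 CPM on HFr and 10.1 to 31.7 CPM on chow for cholangiocytes, 23.8 to 113 and 28.3 to 121 CPM for macrophages, 191 to 376 and 158 to 769 CPM for stellate cells, 119 to 159 and 95.2 to 146 CPM for endothelial cells, and 11.8 to 21.8 and 12.1 to 17.0 CPM for lymphocytes. All of these overlapped between the diets. The part of the pericentral level, or of any other list, in the differences of the P450 genes was not tested.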

How the data were processed

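Liver RNA of 10 vervets (5 HFr, 5 chow) was sequenced as stranded polyadenylated libraries with paired-end reads. The authors filtered reads by quality, aligned them to ChlSab1.1 with Ensembl gene models, and deposited estimated counts per transcript from expectation-maximization in Partek Flow; their processing notes also name STAR 2.5.3a and CASAVA 1.8. Whether counting used strand is not given in the sources used here. The authors also deposited TMM-scaled signal values, used only as a check: within each sample they were a constant multiple of the estimated counts (to within 0.00156%). Of the deposited counts, 97.85% were whole numbers (tolerance 1e-06). Coordinates are as deposited, counted from 1, with the stop excluded.

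Rounded counts that passed filterByExpr at its settings of 10 counts, and 15 in total, entered the quasi-likelihood test of edgeR with TMM factors, with diet as the only term and Benjamini-Hochberg adjustment over 7948 transcripts (threshold 0.05). Versions were edgeR 4.0.16, DESeq2 1.42.0 and limma 3.58.1 in R 4.3.3, and scipy 1.17.1 in Python 3.11.15. The procedure was tested on simulated data. Correlations used 100000 permutations. Of 4 gene pairs listed for correlation, 2 had both genes tested. The limit given for a count of 0 covers counting error only, whereas the 95% intervals of fold changes come from edgeR and include the spread between animals.

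The genes and lists were chosen with earlier results of these data known, and the lists come from general knowledge. Counts of genes include 1 gene of the families whose values are not reported here. The other genes are each accounted for. Values in every animal are given for the other tested gene with the highest mean CPM in each subfamily, for CYP2C8 and for genes with an unadjusted p under 0.05 or without overlap. Of the other lists, those with an unadjusted p under 0.05, POR, NR1I2 and NR1I3 are named, with ALB and ALDH1A1 because lists share them. The mitochondrial share and the within-animal ratios were examined after the values were seen. The alternatives were DESeq2, other normalizations and filters, counts summed by gene, fits without mitochondrial transcripts or with their percent as a covariate, an equal-variance linear model, limma with a pseudocount of 1 or 0.1, robust estimation, a replicate block and each animal left out.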

Additional observations from a re-analysis of the deposited data

Results flagged for a closer look

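Dixon's criterion was applied to 28 groups of 5 animals. These were the 2 diets for each of the 13 P450 genes with 10 or more counts in at least 5 animals and for their summed share of the nuclear counts. In 2 groups an animal lay far from the others. For normally distributed values, chance alone meets the criterion in about 1 in 20 groups. The values were not log-transformed, so this rate need not hold here, and the flags are description only. CYP2B6 in HFr replicate 5 stood at 214 CPM, against 51.2 to 81.9 CPM in the other HFr animals. CYP1A1 in chow replicate 5 stood at 34.0 CPM, from 74 counts, against 0.219 to 6.42 CPM in the other chow animals.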

How the results depend on the processing

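The number of P450 genes with an unadjusted p under 0.05 was 0, where 4.29% of all tested transcripts were called. It became 1, CYP3A4, with DESeq2 (4.16% of all transcripts called), the mitochondrial percent as a covariate (5.11%) or robust estimation. It became 1, CYP1A1, with a count above 0 in any animal (4.69%) or 10 or more counts in at least 5 animals (4.32%). It became 2 without mitochondrial transcripts (CYP3A4 and CYP1A1), where 4.46% of 8324 transcripts were called. With an animal left out it lay between 0 and 2. For robust estimation and with an animal left out, the share of all transcripts called is not given. Those numbers therefore have no background beside them. The added calls of CYP1A1 arise because other filters test it. None of these calls passed adjustment. The number of genes without overlap was 0, where 0.541% of all tested transcripts had none. It lay between 0 and 1 with an animal left out (CYP1A1 without chow replicate 2). Chow replicate 2 had the lowest CYP1A1 on chow, at 1 count, so leaving it out takes away the overlap. The share of all transcripts without overlap is not given with an animal left out. The sign of CYP2B6 turned with the mitochondrial covariate (0.16), the equal-variance model (0.084), limma with a pseudocount of 1 (0.084) or 0.1 (0.086), and the replicate block (0.014), and its log2 fold change lay between -0.55 and 0.51 with an animal left out. That of CYP4V2 turned with library size only (0.051) and lay between -0.12 and 0.052 with an animal left out. With an animal left out, CYP4B1 lay between -0.30 and 0.40, CYP4F11 between -0.12 and 0.16 and CYP3A5 between -0.21 and 0.10. The cause was not tested. The replicate block left the number of genes with an unadjusted p under 0.05 at 0. Replicate numbers did not pair the animals: deviations of same-numbered animals correlated between -0.287 and 0.0986, and 1 of 10 animals correlated best with its own number. CYP1A1 and CYP2R1 are limited by their counts, and CYP2C8, CYP4B1 and CYP2B6 by the spread between animals.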
